A study of Glycine max with 20 samples.

Results

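The 10 gene models described here form the lipoxygenase clusters of soybean (Glycine max) on chromosomes 7 and 8, 4 models on chromosome 7 and 6 on chromosome 8. They were chosen by name: Glyma07g00870.1, Glyma07g00890.1, Glyma07g00900.1 and Glyma07g00920.1 on chromosome 7, and Glyma08g20190.1, Glyma08g20200.1, Glyma08g20210.1, Glyma08g20220.1, Glyma08g20230.1 and Glyma08g20250.1 on chromosome 8. Each name occurs in the deposited table of 66210 gene models with 1 transcript suffix. Leaf RNA was sequenced in 20 libraries from 2 near-isogenic lines, bred to be alike outside a chosen locus. Each line was sampled without aphids (0 h) and at 4, 8, 24 and 48 h after aphid infestation, with 2 biological replicates per line and time. The labels name the genotypes Rag2 (resistant to aphids) and rag2 (susceptible). The count table names the lines BC and W, and neither it nor the labels say which is which, so differences are given as BC minus W with no direction relative to resistance. None of the libraries used here is uninfested after 0 h, so infestation and the passing of time cannot be told apart. The sources used here give neither plant age nor growth conditions.

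Lipoxygenases are iron-containing enzymes that add oxygen to polyunsaturated fatty acids such as linoleic and linolenic acid. Their fatty acid hydroperoxides feed several branches of plant metabolism, among them the synthesis of the hormone jasmonate and of volatile aldehydes that leaves release when wounded. Soybean has many lipoxygenase genes, some known from seeds and others, the vegetative lipoxygenases, from leaves, where they are also known as a form of stored protein. The files pair none of the models with a gene name, and the reference table at hand did not hold these identifiers. So the role of each single model within the family is not given, and no sequence or genome coordinate is shown. In a model name such as Glyma07g00890.1, the chromosome stands first, and the locus number that follows it rises along that chromosome.

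The libraries held between 7558768 and 38227436 reads in gene models. Replicate 2 of BC at 0 h stood apart from the rest. Its correlation with the others averaged 0.893, and 7.46% of its reads lay outside gene models. The next library in both measures was replicate 2 of BC at 8 h, at 0.906 and 4.87%. Replicates 1 and 2 of BC at 0 h make up the 0 h baseline of BC. So the single members' fold changes against 0 h named here are also given without replicate 2 of BC at 0 h. Members of tandem clusters resemble each other in sequence. The table lists 0 reads as aligned to several places in every library, so it does not show how reads shared by near-identical copies were treated, and the values of single members are uncertain to that extent. Levels are CPM values, that is reads scaled to a common library total with TMM-scaled library sizes, and not per length, so they are compared between libraries and not between genes.

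Of the 10 members, 7 passed the filter on low counts, 2 of 4 on chromosome 7 and 5 of 6 on chromosome 8. In the whole table, 38918 of 66210 models passed. The other 3 were hardly detected in leaves. Glyma07g00870.1 had 1 read in all, in replicate 1 of BC at 48 h. Glyma08g20220.1 had 3 reads over the 10 BC libraries and 2 over the 10 W libraries. With at most 2 reads in any library, both lay under the level of 3 reads, which is between 0.0746 and 0.428 CPM in a single library. Glyma07g00920.1 had 23 reads in BC and 39 in W, spread over 17 libraries, with at most 13 in any of them. Its group means lay between 0.105 and 0.374 CPM. The level of 3 reads covers counting error only.

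**Figure D1:**
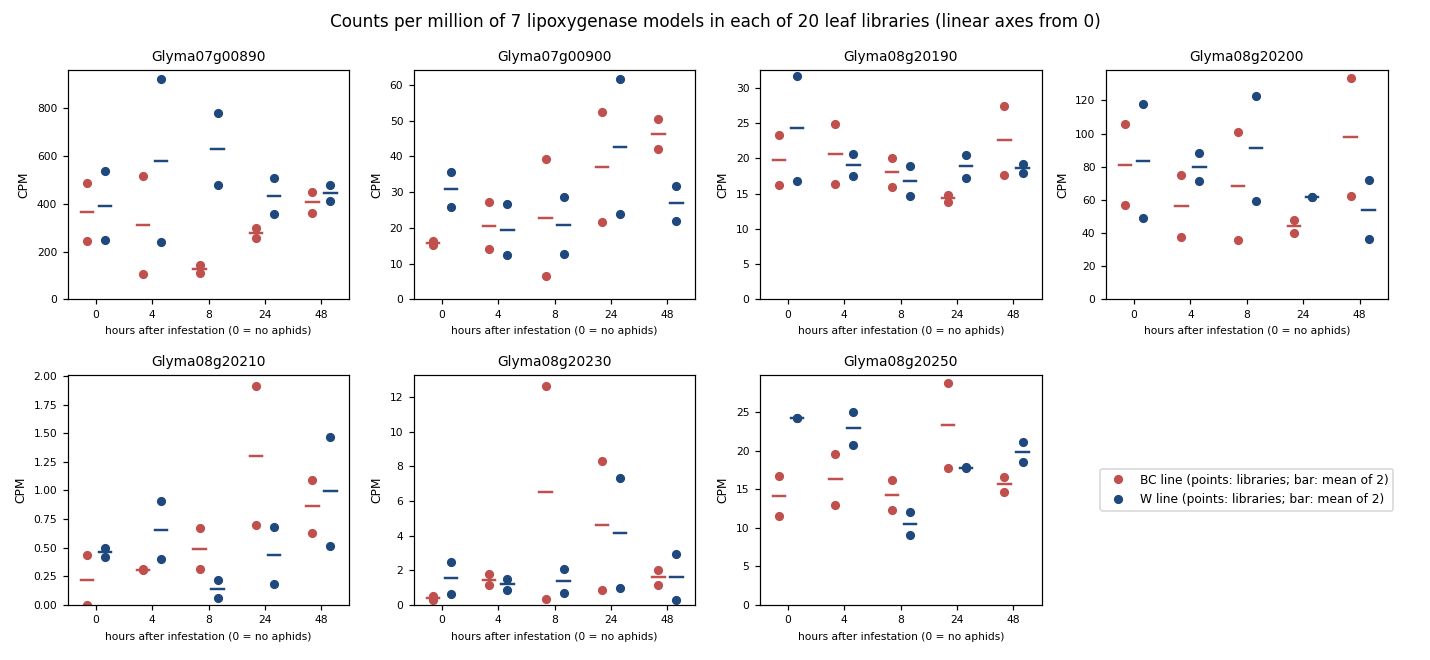
Level in CPM (vertical axes, linear from 0) of the 7 members with enough reads at 0, 4, 8, 24 and 48 h (horizontal axes), with BC left of W at each time; points are libraries and bars the means of 2. Replicates of a group lay far apart in Glyma07g00890 (107 and 518 CPM in BC at 4 h) and Glyma08g20230 (0.315 and 12.7 CPM in BC at 8 h). In Glyma08g20250 they differed by at most 1.62-fold, in BC at 24 h.

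The first question was whether the clusters changed after infestation. Averaged over both lines, none of the 7 members tested passed the threshold against 0 h at any later time (edgeR quasi-likelihood test, 4 libraries per time, adjusted p below 0.05 over all models). Of all 38918 models, 1.64% passed at 4 h, made up of 1.06% that were higher than at 0 h and 0.583% that were lower. At 8 h 3.92% passed, 1.87% in the upward and 2.05% in the downward direction. At 24 h 0% passed, and 0.0257% did at 48 h, all of them lower. At an unadjusted p below 0.05 there were 0 members at 4 h (15% of all models), 1 at 8 h (17.4%), 1 at 24 h (8.98%) and 1 at 48 h (11.3%), a different member each time. DESeq2 called 0 members at each of these times, beside 3.93% (4 h), 6.55% (8 h), 0.326% (24 h) and 0.36% (48 h) of all models. Limma with library weights also called 0 members, beside 0.278%, 1.49%, 0% and 0% of all models at the same times. The shares of all models called against 0 h hang on a single library: without replicate 1 of BC at 0 h, which leaves the replicate that stood apart as the BC baseline, they were 13.1%, 13.8%, 6.98% and 11.2%. Without replicate 2 they were 1.03%, 3.13%, 0% and 0.0125%, and 0 members were called in either case. The 4 comparisons share the 0 h libraries. The median log2 fold change of the 7 members was 0.05 (4 h), -0.34 (8 h), 0.13 (24 h) and 0.17 (48 h), where that of all models lay between -0.03 and 0.00. At 24 h against 8 h, 1 member rose, where 4.24% of all models passed, 2.2% higher and 2.04% lower. At an unadjusted p below 0.05 there were 2 members, beside 16.8% of all models. The median of the 7 in that comparison was 0.58, beside 0.00 over all models, with 5 members above 0 and 2 below. Against 0 h, 1 member lay above 0 and 6 below at 8 h, and 4 above and 3 below at each of 4, 24 and 48 h. The comparison of 24 h with 8 h uses the same libraries as those of 8 h and 24 h against 0 h. The split over all models was not computed.

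The member that passed was Glyma08g20250.1, the last of the cluster on chromosome 8. In BC, replicates 1 and 2 were at 16.7 and 11.6 CPM (0 h), 12.9 and 19.6 (4 h), 12.3 and 16.2 (8 h), 17.8 and 28.9 (24 h), and 14.6 and 16.7 (48 h). In W they were at 24.3 and 24.3 CPM (0 h), 20.8 and 25.1 (4 h), 12.1 and 9.01 (8 h), 17.8 and 17.9 (24 h), and 21.1 and 18.6 (48 h). All 4 libraries of 24 h lay above all 4 of 8 h. In W the 8 h libraries were the lowest of the line, while in BC the 8 h libraries lay among those of 0, 4 and 48 h. The 24 h level was higher than the 8 h level by a log2 fold change of 0.74 (standard error 0.19, 95% interval 0.33 to 1.15, edgeR adjusted p = 0.0447). This call lay close to the threshold. It was lost in 15 of 20 fits without a single library, namely without any of the 10 W libraries, either BC library of 8 h or 48 h, or replicate 2 of BC at 24 h. Over the 20 fits the log2 fold change ran from 0.54 to 0.89 and the edgeR adjusted p from 0.0234 to 0.214.

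Against 0 h, Glyma08g20250.1 at 8 h had a log2 fold change of -0.60 (standard error 0.19, 95% interval -1.02 to -0.19), which did not pass (edgeR adjusted p = 0.113). Without replicate 2 of BC at 0 h it was -0.72 with an edgeR adjusted p of 0.0778. Within W alone, a joint test of the 4 later times against 0 h gave it an edgeR adjusted p of 0.125. That joint test called 0 of 7 members in W, where 2.65% of all models passed and 14.6% had an unadjusted p below 0.05, Glyma08g20250.1 among them. Some other fits of these joint comparisons in W called it and others did not. With edgeR its adjusted p was 0.125 with RLE in place of TMM scaling. It was 0.0837 without the low-count filter and 0.134 with the replicate number as a block. Those fits called 2.62%, 2.22% and 2.84% of all models and 0 members. The fits that follow called Glyma08g20250.1. Its adjusted p was 0.0184 with DESeq2 (likelihood-ratio test) and 0.036 with limma and library weights (moderated F test). With edgeR fitted to the W libraries alone it was 0.0481. These fits called 7.52%, 5.26% and 2.14% of all models. In BC the joint test called 0 of 7 members, beside 1.6% of all models, and 0 had an unadjusted p below 0.05, where 17.6% of all models did. DESeq2 and limma also called 0 members in BC, beside 8.88% and 0.0334% of all models. Without replicate 1 of BC at 0 h edgeR called 15.7% of all models in BC and without replicate 2 1.28%, with 0 members in either. For Glyma08g20250.1 the BC value was an edgeR adjusted p of 0.338, and 0.48 without replicate 2 of BC at 0 h.

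**Figure D2:**
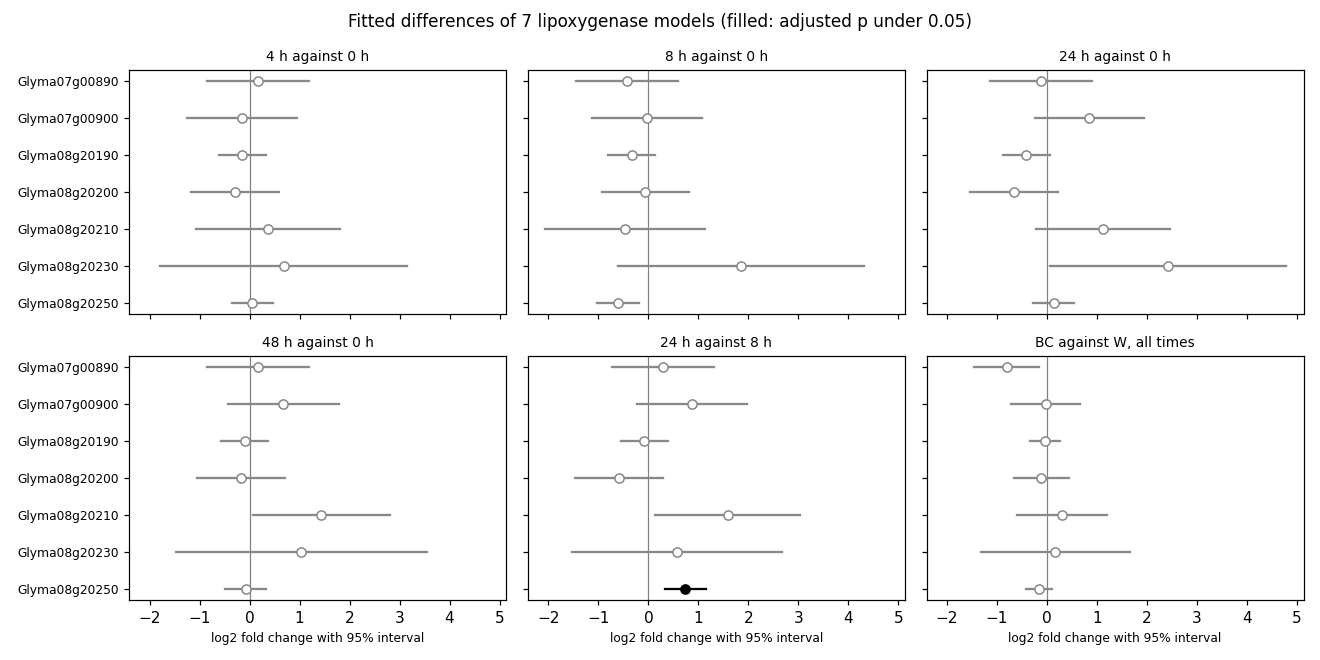
Fitted log2 fold changes (horizontal axes) with 95% intervals for the 7 members tested (rows), in 5 comparisons of times averaged over the lines and in BC against W over all times. The filled point, Glyma08g20250 in 24 h against 8 h at 0.74, is the member with an adjusted p below 0.05, and the intervals of Glyma08g20230 are the widest.

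The second question was whether the lines differed. Averaged over the 5 times, 0 of 7 members passed between BC and W, where 0.213% of all models did (0.136% higher, 0.0771% lower, edgeR), and DESeq2 and limma also called 0 members, beside 0.699% and 0.149% of all models. Without replicate 1 of BC at 0 h edgeR called 1.3% of all models between the lines and 0 members. At an unadjusted p below 0.05 there was 1 member, beside 9.11% of all models. The interaction test of whether the time course differed between the lines called 0 members and 0% of all models. Without replicate 1 of BC at 0 h it called 4.46% of all models and 0 members, and without replicate 2 0% and 0 members. With all libraries 1 member, Glyma08g20250.1 (edgeR adjusted p = 0.597), and 8.02% of all models had an unadjusted p below 0.05. DESeq2 called 0.373% of all models in this test and limma 0%, none of them a member. The intervals of the line difference were narrowest for Glyma08g20250.1, from -0.42 to 0.10, and Glyma08g20190.1, from -0.33 to 0.26 on the log2 scale. For Glyma07g00900.1 (-0.72 to 0.66), Glyma08g20200.1 (-0.67 to 0.44), Glyma08g20210.1 (-0.61 to 1.19) and Glyma08g20230.1 (-1.33 to 1.65), differences between the lines of 1.5-fold or more lie inside the intervals.

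The member with the unadjusted p below 0.05 between lines was Glyma07g00890.1, on chromosome 7. In BC, replicates 1 and 2 were at 486 and 246 CPM (0 h), 107 and 518 (4 h), 144 and 111 (8 h), 299 and 259 (24 h), and 451 and 361 (48 h). In W they were at 249 and 536 CPM (0 h), 921 and 239 (4 h), 779 and 479 (8 h), 507 and 359 (24 h), and 410 and 480 (48 h). The BC mean was below the W mean at all 5 times, and the replicates of the lines overlapped at 0, 4 and 48 h. At 8 h and 24 h both BC libraries lay below both W libraries. At 8 h BC averaged 127 ± 22.9 CPM, against 629 ± 212 CPM for W (SD, n = 2 each). Over all times BC averaged 298 ± 153 CPM, against 496 ± 215 CPM for W (SD, n = 10 each). The fitted log2 fold change was -0.81 (standard error 0.30, 95% interval -1.46 to -0.16), which failed the correction (edgeR adjusted p = 0.491). It ran from -1.12 to -0.56 over the fits without a single library.

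At 4 h the replicates of Glyma07g00890.1 differed 4.83-fold in BC and 3.85-fold in W, while at 24 h and 48 h they differed 1.15-fold and 1.25-fold in BC and 1.41-fold and 1.17-fold in W. The other models whose log2 CPM followed it most closely over the 20 libraries were Glyma15g03050.1 (Pearson r = 0.975), Glyma20g09810.1 (0.944), Glyma20g24990.1 (0.934), Glyma08g03730.1 (0.932) and Glyma13g39600.1 (0.929). All libraries share the groups and the scaling, so this is a description of likeness. For Glyma15g03050.1 Spearman's rho was 0.946, and Pearson's r without the 2 libraries farthest from the median of Glyma07g00890.1 was 0.965. The group plays no part in differences between replicates, but these come from the same 20 libraries by which the models were picked. So they are no separate check. Over the 10 differences of replicate 2 minus replicate 1, r was 0.969 for Glyma15g03050.1, and 0.905 without the 2 farthest groups. For the other models listed, r over these differences lay between 0.894 and 0.964. Glyma15g03050.1 was at 323 and 1498 CPM in BC and 2823 and 639 CPM in W at 4 h, and at 244 and 314 CPM in BC and 2121 and 1599 CPM in W at 8 h. Its log2 fold change between the lines, -0.97 (standard error 0.30), did not pass either (edgeR adjusted p = 0.418).

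**Figure D3:**
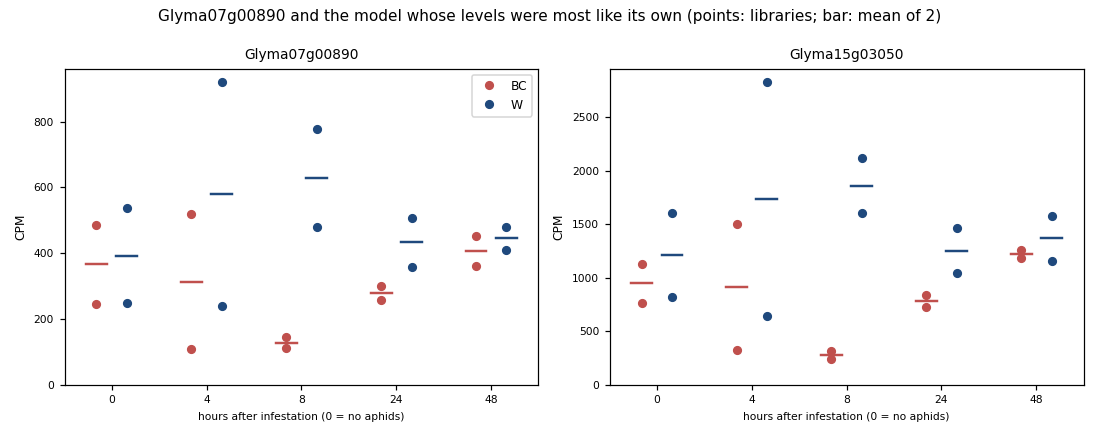
CPM (vertical axes, linear from 0) of Glyma07g00890 and of Glyma15g03050, the model most like it over 20 libraries (r = 0.975), by time with BC left of W; points are libraries and bars the means of 2. In both, replicates lay far apart at 4 h and the BC libraries of 8 h were low.

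Glyma07g00900.1, the next detected member on chromosome 7, had another pattern. In BC it was at 16.4 and 15.3 CPM (0 h), 14.1 and 27.1 (4 h), 6.56 and 39.1 (8 h), 52.3 and 21.7 (24 h), and 42.0 and 50.5 (48 h). In W it was at 26.0 and 35.6 CPM (0 h), 26.6 and 12.5 (4 h), 28.7 and 12.6 (8 h), 23.8 and 61.5 (24 h), and 31.8 and 21.9 (48 h). The highest group means were those of BC at 48 h and W at 24 h, but single libraries of 24 h lay within the range of 0 h. The log2 fold change against 0 h was 0.85 at 24 h (edgeR adjusted p = 0.627). At 48 h it was 0.68 (edgeR adjusted p = 0.631), and both had a standard error of 0.51. Without replicate 2 of BC at 0 h these values were 0.82 and 0.65.

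Glyma08g20230.1 on chromosome 8 varied most between replicates. In BC it was at 0.508 and 0.285 CPM (0 h), 1.16 and 1.75 (4 h), 0.315 and 12.7 (8 h), 8.34 and 0.870 (24 h), and 2.03 and 1.14 (48 h). In W it was at 2.50 and 0.641 CPM (0 h), 1.5 and 0.871 (4 h), 2.08 and 0.674 (8 h), 0.970 and 7.35 (24 h), and 2.93 and 0.258 (48 h). A single library was high in each of 3 groups, replicate 2 of BC at 8 h, replicate 1 of BC at 24 h and replicate 2 of W at 24 h, with 285, 240 and 151 reads. The other replicate of these groups had 5, 35 and 16 reads. Replicate 2 of BC at 8 h also had a low mean correlation with the other libraries, 0.906 over all models. In BC at 0 h Glyma08g20230.1 had 7 and 2 reads, so its fold changes against 0 h rest in part on a baseline of few reads. At 24 h the fitted log2 fold change against 0 h was 2.43 (standard error 1.09, 95% interval 0.07 to 4.79, edgeR adjusted p = 0.548). Without replicate 2 of BC at 0 h it was 2.30 (edgeR adjusted p = 0.859). It was 1.24 without replicate 1 of BC at 24 h and 1.38 without replicate 2 of W at 24 h, and ran from 1.24 to 3.06 over the 20 fits without a single library. The 8 h value against 0 h was 1.85, against 1.72 without replicate 2 of BC at 0 h and -0.31 without replicate 2 of BC at 8 h.

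In each of these 3 groups the same library was the higher of its pair in Glyma07g00900.1, on the other chromosome. Over the 10 replicate differences the correlation between these members was 0.872 (rho = 0.770), and the difference had the same sign in 8 of 10 groups. Without the 2 groups farthest from the median of Glyma07g00900.1, BC at 8 h and BC at 24 h, the correlation was 0.683 over 8 (rho = 0.548). W at 24 h, also among the 3 groups with a single high library, stayed in this value. Glyma08g20230.1 ranked 25th of all other models by likeness of replicate differences to Glyma07g00900.1, which ranked 43rd in likeness to Glyma08g20230.1. Over the 20 libraries r was 0.708 (rho = 0.696), and the same ranks were 70 and 205. A second pair with like replicate differences was Glyma08g20210.1 and Glyma08g20250.1, with r = 0.737 over 10 groups and 0.687 over 20 libraries. Among the other 19 of 21 pairs of members, r over the 20 libraries lay between -0.381 and 0.408. The median of the 21 pairs was 0.0973. Both pairs were singled out after their values were seen, and the points of each share libraries and depth.

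**Figure D4:**
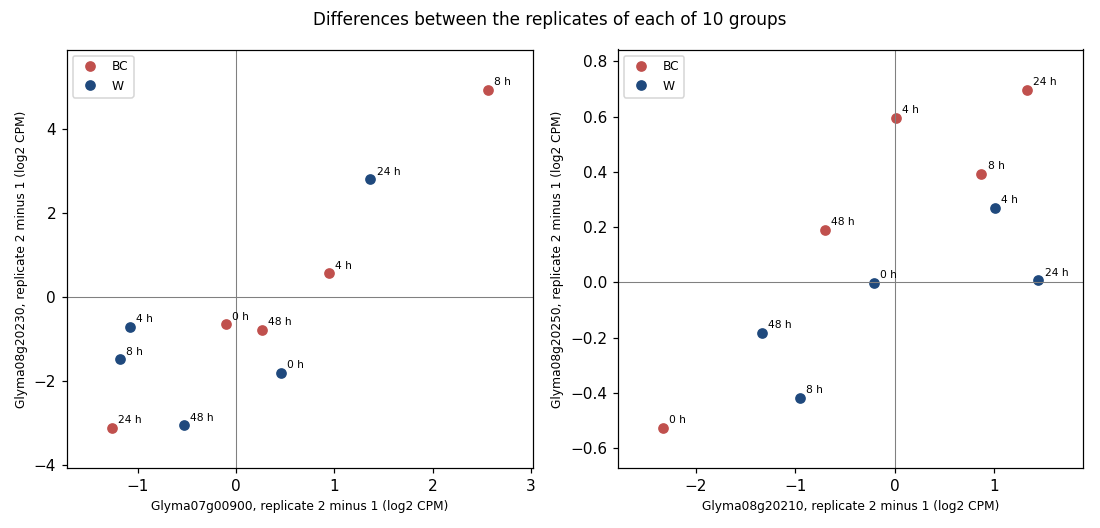
Difference between replicate 2 and replicate 1 in log2 CPM for each of the 10 groups (points, labelled by time), for Glyma08g20230 against Glyma07g00900 (left) and Glyma08g20250 against Glyma08g20210 (right). The correlations were 0.872 and 0.737, and BC at 8 h lies farthest out on the left.

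Glyma08g20210.1 had few reads, 150 over the BC libraries and 105 over the W libraries. In BC it was at 0.436 and 0 CPM (0 h), 0.305 and 0.310 (4 h), 0.315 and 0.667 (8 h), 0.695 and 1.91 (24 h), and 1.09 and 0.631 (48 h). In W it was at 0.499 and 0.418 CPM (0 h), 0.397 and 0.906 (4 h), 0.219 and 0.0613 (8 h), 0.182 and 0.681 (24 h), and 1.47 and 0.516 (48 h). All 4 libraries of 48 h lay above all 4 of 0 h, and the 48 h group averaged 0.862 ± 0.326 CPM for BC, against 0.991 ± 0.672 CPM for W (SD, n = 2 each). The log2 fold change of 1.43 (standard error 0.64, 95% interval 0.06 to 2.81) did not pass (edgeR adjusted p = 0.426), and was 1.09 without replicate 2 of BC at 0 h. Over the 20 fits without a single library it ran from 0.94, without replicate 1 of W at 48 h, to 4.11, without replicate 1 of BC at 0 h. The highest value rests on a BC baseline of 0 reads, so it depends on the fit's prior count and is no measure of size, and the edgeR adjusted p ran from 0.0665 to 0.874. In 24 h against 8 h it was 1.59 (standard error 0.68, edgeR adjusted p = 0.250), and ran from 0.96 to 2.05 over those fits. Replicate 2 of BC at 0 h had 0 reads, and its level of 3 reads is 0.428 CPM. Replicate 1, at 0.436 CPM, lay just above that but rests on 6 reads, so the values do not establish a difference in level.

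The remaining detected members of chromosome 8 changed little beside their replicate spread. Glyma08g20190.1 stayed within a 2.28-fold range over all libraries. Its lowest, median and highest levels were 13.9, 17.1 and 27.5 CPM in BC and 14.7, 18.4 and 31.7 CPM in W. Its largest fitted change was -0.42 at 24 h against 0 h (standard error 0.22, 95% interval -0.88 to 0.05, edgeR adjusted p = 0.579), and -0.53 without replicate 2 of BC at 0 h. Glyma08g20200.1 ran from 36.1 CPM over a median of 59.7 to 134 CPM in BC, and from 36.3 CPM over a median of 66.6 to 123 CPM in W. Its replicates differed by more than 2-fold in 4 of 10 groups, and its largest fitted change was -0.65 at 24 h against 0 h (standard error 0.41, 95% interval -1.53 to 0.22, edgeR adjusted p = 0.639), and -0.40 without replicate 2 of BC at 0 h. The models most like it over the 20 libraries were Glyma02g45540.1 (r = 0.790), Glyma20g00490.1 (0.736), Glyma07g11500.1 (0.730), Glyma06g10470.1 (0.707) and Glyma17g35230.1 (0.703), none of them a member.

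The spread between replicates is given as the biological coefficient of variation, the part of the spread beyond counting noise. It was 0.456 at the median of the 7 members tested, 0.193 at the median of 15 tested neighbours and 0.237 over all models tested. Because this measure depends on abundance, the models were divided into 5 classes of mean CPM and each member was set beside the models of its own class. Glyma08g20230.1, at 0.898, exceeded 99% of its class, Glyma07g00900.1, at 0.485, exceeded 97.9%, Glyma07g00890.1, at 0.456, exceeded 96.4%, and Glyma08g20200.1, at 0.400, exceeded 94%. Glyma08g20210.1, at 0.479, exceeded 76.1%, Glyma08g20190.1, at 0.227, exceeded 70.9%, and Glyma08g20250.1, at 0.200, exceeded 57.3%. In fits without each library in turn, the first 4 members exceeded at least 98.2%, 93.6%, 94.1% and 92.3% of their class. The member that passed a test, Glyma08g20250.1, had the smallest spread of the 7.

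**Figure D5:**
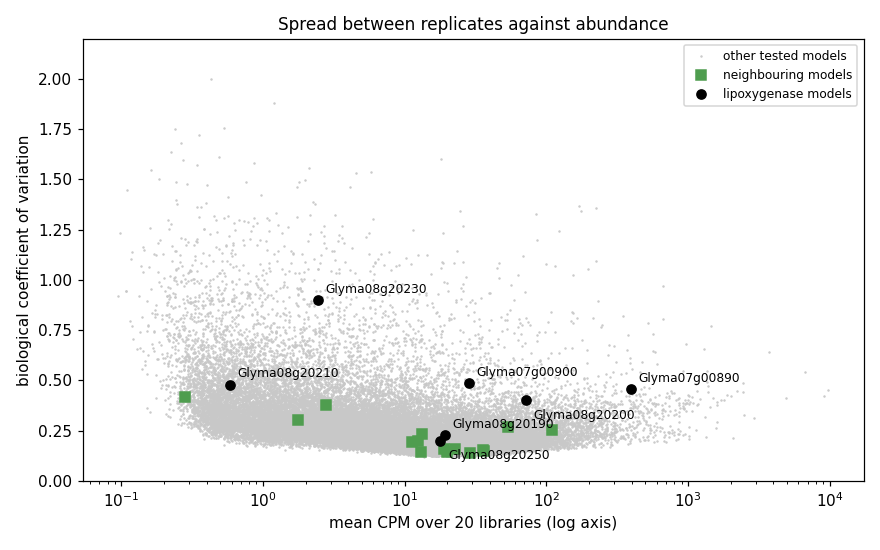
Biological coefficient of variation between replicates (vertical axis) against mean CPM over 20 libraries (horizontal axis, log scale) for all 38918 models tested (grey), 15 neighbours of the clusters (squares) and 7 members (circles). Glyma08g20230 (0.898), Glyma07g00900 (0.485), Glyma07g00890 (0.456) and Glyma08g20200 (0.400) lie above the dense band of models of like abundance, with single models higher still.

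The models next to the clusters were taken for comparison: those between members by locus number and the 5 nearest on each side, 23 in all. The 3 models between members (Glyma07g00880.1, Glyma07g00910.1 and Glyma08g20240.1) had 0, 0 and 9 reads in all. Of the 23, 15 had enough reads to be tested, and 0 of 15 passed in any of the 9 comparisons (edgeR). At an unadjusted p below 0.05 they were between 0 and 4 of 15, with 4 at 48 h against 0 h. The median absolute log2 fold change was not always larger in the members. In 24 h against 8 h it was 0.59 over the 7 members, 0.09 over the 15 neighbours and 0.24 over all models. Against 0 h the members, neighbours and all models were at 0.17, 0.26 and 0.25 (4 h), 0.42, 0.22 and 0.26 (8 h), 0.65, 0.17 and 0.20 (24 h), and 0.18, 0.28 and 0.23 (48 h). Between the lines they were at 0.16, 0.07 and 0.13. Absolute fold changes also grow with the spread between replicates. The median coefficient of variation was 0.456 in the members, 0.193 in the neighbours and 0.237 over all models. Whether the members changed more than this spread alone would give was not tested. The neighbour with the largest coefficient of variation for its abundance, Glyma07g00840.1, exceeded 83.3% of its class.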

How the data were processed

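The authors deposited raw read counts per gene model, 1 column per library and with no normalization. The tools listed in the submitters' processing notes are HTSeq 0.5.3, Cuffdiff 1.3.0, TopHat 1.4.1 and edgeR. The sources used here name no genome build, annotation release or strand setting, so reads of overlapping or antisense models cannot be told apart. The 5 summary rows without a gene stayed out of totals and tests. They held 2.79% to 7.46% of reads outside models and 1.43% to 1.86% ambiguous reads. None of the 66210 models matched the RefSeq gene table (Glycine_max_v4.0), so no other pathway gene and no leaf marker could be listed.

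Models were filtered with filterByExpr and scaled by TMM. All 20 libraries were fitted in 1 model of 10 line-by-time groups with edgeR 4.0.16 in R 4.3.3 (robust quasi-likelihood test, two-sided, Benjamini-Hochberg over 38918 models, threshold 0.05), which leaves 10 residual degrees of freedom. Each standard error is the log2 fold change divided by the root of its F value. Whether replicates were separate plants is not stated beyond biological replicate. Alternatives were DESeq2 1.42.0, limma 3.58.1 and those named in the closing section. Named were all 10 members, the 5 models most like the member with the highest mean CPM in each cluster, and neighbours by locus number. The members, lists and tests were chosen with earlier results of these data known.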

Additional observations from a re-analysis of the deposited data

Results flagged for a closer look

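In the groups of 4 libraries of a single time, both lines together, 6 of 35 combinations of member and time had a library far from the other 3 by Dixon's criterion. About 1 in 20 would by chance if the values were normally distributed, which CPM values of few reads are not. The share over all models was not computed, so the count is no result about the members. The 4 libraries mix the lines, so a difference between the lines adds to the gap. Glyma08g20190.1 was at 27.5 CPM in replicate 2 of BC at 48 h, with the others between 17.7 and 19.2 CPM. Glyma08g20210.1 was at 0 CPM in replicate 2 of BC at 0 h (others 0.418 to 0.499 CPM) and at 0.906 CPM in replicate 2 of W at 4 h (others 0.305 to 0.397 CPM). Its value of 0 CPM is limited by depth, since 3 reads are 0.428 CPM in replicate 2 of BC at 0 h. Glyma08g20230.1 was at 2.50 CPM in replicate 1 of W at 0 h (others 0.285 to 0.641 CPM) and at 12.7 CPM in replicate 2 of BC at 8 h (others 0.315 to 2.08 CPM). Glyma08g20250.1 was at 28.9 CPM in replicate 2 of BC at 24 h (others 17.8 to 17.9 CPM), and its call in 24 h against 8 h was lost without that library (log2 fold change 0.54, edgeR adjusted p = 0.214).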

How the results depend on the processing

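Across 26 alternative settings, 20 of which leave out a library, 1055 of 1084 recomputed log2 fold changes kept their side of the threshold and their direction or moved by less than 1 standard error. The call of Glyma08g20250.1 in 24 h against 8 h held with RLE scaling, DESeq2, limma voom and no low-count filter (adjusted p from 0.00852 to 0.0397). In that order, these fits called 4.17%, 7.02%, 5.03% and 2.73% of all models. The call was lost with the replicate number as a block (log2 fold change 0.73, edgeR adjusted p = 0.0501). It was also lost with only the libraries compared (0.75, edgeR adjusted p = 0.0868). In these fits 0 members were called, beside 4.34% and 3.8% of all models. Without single libraries the count ranged from 0 to 1. The replicate differences of 45 pairs of groups correlated between -0.478 and 0.498, at a median of -0.0115, with 15 above 0.1. These correlations showed no shift by replicate number common to all groups, but a small shift could go unseen beside differences of this size. A pairing within some groups cannot be decided from these values, since single correlations lay far from 0 on both sides. The block changed no other count of members. In the joint test within W the count was 1 with DESeq2, limma voom and the W libraries alone, beside 7.52%, 5.26% and 2.14% of all models. With RLE scaling, no low-count filter and the block it was 0, beside 2.62%, 2.22% and 2.84%. The line difference and the interaction use every library, so a fit to the libraries compared was not run for them. Signs turned, by over 1 standard error and with no call, in 12 values without a single library. The ranges over the 20 such fits were -0.60 to 0.53 (Glyma07g00890.1) and -0.34 to 0.12 (Glyma08g20190.1) at 4 h against 0 h. At 8 h they were -0.93 to 2.21 (Glyma08g20210.1, the highest with 0 reads left in BC at 0 h) and -0.31 to 2.48 (Glyma08g20230.1). At 24 h Glyma08g20250.1 ran from -0.059 to 0.29, and at 48 h Glyma08g20190.1 from -0.29 to 0.16 and Glyma08g20230.1 from -0.31 to 1.66. In 24 h against 8 h Glyma08g20230.1 ran from -0.61 to 2.75. Between the lines, Glyma08g20210.1 ran from -0.78 to 0.54 and Glyma08g20230.1 from -0.72 to 0.69. The causes were not tested. Depth limits the 3 members under the filter and Glyma08g20210.1. It also limits Glyma08g20230.1 in its low libraries, such as those of BC at 0 h with 7 and 2 reads.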

Other observations

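The models most like the other members of high spread were looked up after their values were seen. For Glyma08g20230.1 the closest over 20 libraries was Glyma13g07870.1, at a mean of 0.172 CPM (r = 0.940, and 0.968 over the 10 replicate differences), followed by Glyma02g12520.1 at a mean of 16.9 CPM (r = 0.862). For Glyma07g00900.1 the closest was Glyma19g06730.1, at a mean of 34.2 CPM (r = 0.835, and 0.805 over the replicate differences). The files name none of these models. Glyma07g00890.1 and Glyma07g00900.1, neighbours among the detected members of chromosome 7, correlated at 0.297 over the 20 libraries, beside 0.975 between Glyma07g00890.1 and Glyma15g03050.1 on another chromosome. The points of each pair share libraries and depth.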
